A study of Homo sapiens with 3 samples.

Results

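Genes switched on by the transcription factor NF-kB, together with chemokines made by epithelium, were described in Caco-2, a human colon carcinoma line, after knockdown of the transcript OCC-1 (gene symbol C12orf75). The set was given as 10 genes, namely CXCL1, CXCL2, CXCL3, CXCL8, CCL20, NFKBIA, TNFAIP3, BIRC3, ICAM1 and LCN2, and every probe set that the platform's annotation assigns to exactly 1 of them was taken. This found 19 probe sets of 9 genes, out of 44988 probe sets and 18132 genes named in this way. BIRC3 was not named by that annotation and was not analysed here. The series consists of 3 arrays of total RNA, each from a separate Caco-2 culture transduced with a lentivirus. The control culture carried a non-target hairpin (shCTRL, n = 1), line 1 the hairpin shOCC-1-1 and line 2 the hairpin shOCC-1-2 (OCC-1 knockdown, n = 2). All 3 had been kept in 20% fetal bovine serum, selected with puromycin at 1 µg/ml for 5 days and grown 24 h without it. No cytokine or microbial stimulus is named in the labels, and the cells are not described as clones.

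NF-kB is held in the cytoplasm by inhibitor proteins such as IkB-alpha. When a cytokine or microbial receptor is engaged, the IKK kinase marks the inhibitor for ubiquitination by the SCF beta-TrCP ligase, and the freed NF-kB dimer binds kB sites in the promoters of its targets. In intestinal epithelium these targets include chemokines that call in neutrophils and lymphocytes, an adhesion molecule, an iron-scavenging antimicrobial protein, and inhibitors that shut the pathway off again. Several of the chemokine mRNAs also carry AU-rich elements, which are read by decay factors and by the stabilising protein HuR, a protein that the study's authors have connected with OCC-1.

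The kB sites are the sequence feature that these genes share, and 60-base stretches upstream of the transcription start are shown here for the members with values, with the matches in capitals. Sequences are from RefSeq (GRCh38.p14), read 5′ to 3′ on the gene's own strand. TNFAIP3 is left out because its annotated gene begins upstream of the start used in that table.
CXCL1 (chr4:73869289-73869348, plus strand): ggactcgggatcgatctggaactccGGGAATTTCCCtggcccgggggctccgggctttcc
CXCL2 (chr4:74099239-74099298, minus strand): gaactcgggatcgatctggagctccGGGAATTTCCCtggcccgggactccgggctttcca
CXCL3 (chr4:74038734-74038793, minus strand): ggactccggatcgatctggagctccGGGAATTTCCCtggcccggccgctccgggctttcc
CXCL8 (chr4:73740452-73740511, plus strand): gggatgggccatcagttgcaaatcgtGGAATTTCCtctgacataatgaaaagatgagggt
CCL20 (chr2:227813738-227813797, plus strand): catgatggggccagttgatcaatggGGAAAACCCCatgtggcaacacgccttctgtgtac
NFKBIA (chr14:35404796-35404855, minus strand): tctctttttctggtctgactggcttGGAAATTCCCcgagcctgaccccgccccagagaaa
ICAM1 (chr19:10270908-10270967, plus strand): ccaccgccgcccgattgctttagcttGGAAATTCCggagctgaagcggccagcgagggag
LCN2 (chr9:128149253-128149312, plus strand): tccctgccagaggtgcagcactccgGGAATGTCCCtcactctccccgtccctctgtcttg

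Matches were sought on both strands in the 250 bases before and 50 bases after each start. The classical NF-kB consensus was found for 8 of the 10 genes, CXCL8 and ICAM1 being the exceptions, and in 11.3% of 35116 promoters in the table. The shorter string GGAATTTCC, or its reverse complement GGAAATTCC, was found for 6 of the 10 and in 0.461% of the promoters. It was added after the members' promoters had been read, and it overlaps the consensus match in CXCL1, CXCL2, CXCL3 and NFKBIA. All 10 genes held at least 1 of these strings, as did 11.5% of all promoters. The genes are textbook NF-kB targets, so this is a description of the set, and a match does not show that a factor was bound. The stretches of CXCL1, CXCL2 and CXCL3 have an unbroken run of 23 bases in common, ctccGGGAATTTCCCtggcccgg. Among these 3 genes no difference from control passed the test described below. For CXCL1 and CXCL2 the direction depended on the probe set.

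The arrays had median intensities of 182.5 to 185.5, and OCC-1 itself was read at 1219 in the control and 518 and 397 in lines 1 and 2, or 42.5% and 32.5% of control. With 1 array per hairpin there is no replicate check of a single line, and the precision of all values is limited by this number of arrays. Differences are given in log2 against the control array, for line 1 first, and ± is the SD over the 2 knockdown lines. A size rule asked for a 1.5-fold difference or more with both hairpins in 1 direction, as the series took genes changed by both. A limma test of the 2 knockdown arrays against the control was run over the 22670 probe sets whose mean lay at or above the median of all probe sets (intensity 184), and its adjusted p-values, here called significant at 0.05, are over all of these. These p-values rest on no spread but that between the 2 hairpin lines, which limma draws for each probe set toward the spread of all tested probe sets. The fit gives the single control the same spread. Both lines share that control, so a deviation of the control array would move both differences together.

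Of the 9 genes, CCL20 was the only one with a significant change, whether or not the probe sets below the intensity filter were tested too: it fell in the knockdown lines. The other 8 stayed within 1.25-fold of control on every probe set in both lines. Of the 19 probe sets 0 reached 1.5-fold in both lines, where 0.769% of all named probe sets did. The intensity filter was passed by 11 of the 19, belonging to CXCL1, CXCL2, CCL20, NFKBIA, TNFAIP3 and ICAM1, and 10 of these lay above it on all 3 arrays. Of these 11, 0 reached 1.5-fold in both lines, where 1.52% of all 22670 did. In limma, 1 of the 11 was significantly lower, where 3.92% of all tested probe sets were, and 0 were significantly higher, where 11.3% were. At an unadjusted p under 0.05 there were 3 of 11, all lower, against 31.4% of all tested probe sets in either direction. The median difference of the 11 was -0.09 in line 1 and -0.11 in line 2, and that of all tested probe sets -0.01 and -0.02. In each line 9 of the 11 were lower than control, beside 52.9% and 54.0% of all tested probe sets. Over all 19 member probe sets 13 were lower in each line, beside 60.4% and 57.2% of all named probe sets.

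**Figure D1:**
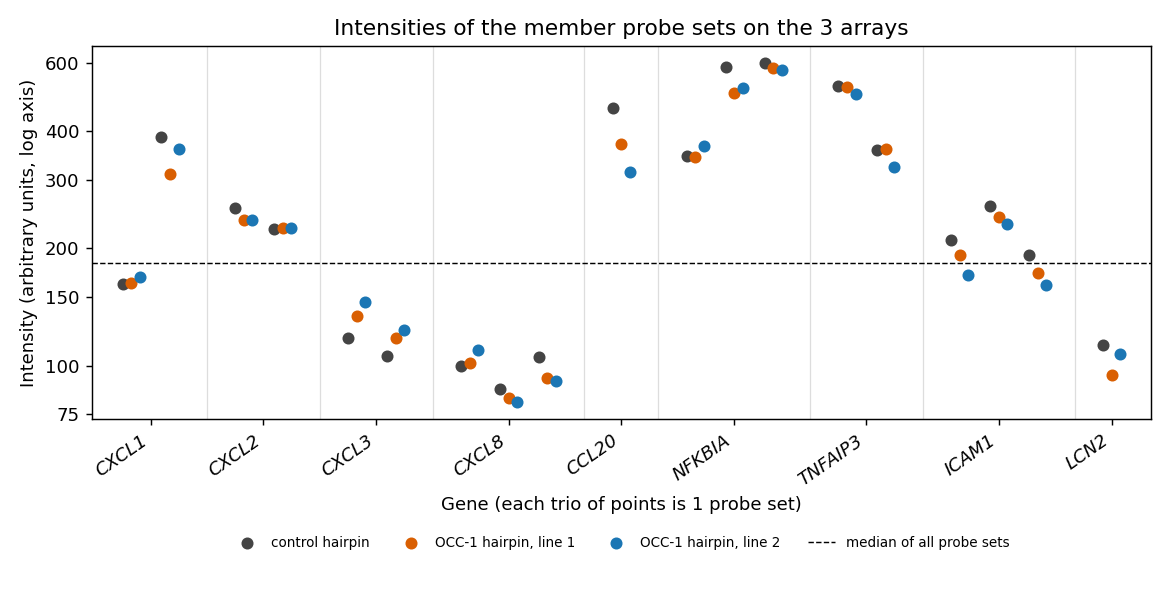
Intensity of each member probe set (log axis, arbitrary units) on the control array and the arrays of lines 1 and 2, with 1 trio of points per probe set and the median of all probe sets (184) as a dashed line. The control lies above both lines for CCL20 and for all 3 ICAM1 probe sets and below both for CXCL3, while line 2 lies above the control and line 1 just below it on the first NFKBIA probe set.

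CXCL1, CXCL2, CXCL3 and CXCL8 encode ligands of the receptor CXCR2, and CXCL8 of CXCR1 as well, by which neutrophils are drawn into inflamed mucosa. None of them had a significant change. The first 3 are close sequence copies of each other, so their probe sets are not certain to read separate transcripts.

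For CXCL1, the probe set 11754114_a_at had intensities of 387 in the control and 310 and 360 in lines 1 and 2. The control was the highest of the 3, but line 2 lay nearer to the control than to line 1. The difference was -0.21 ± 0.15 (SD, n = 2), with an SE of 0.10 and an adjusted p of 0.18 in limma. The other CXCL1 probe set, 11719366_s_at, lay below the filter and showed no decrease, with 162 in the control and 163 and 169 in lines 1 and 2. A further probe set, 11763250_x_at, is assigned to both CXCL1 and CXCL2 and was therefore not a member; it was read at 223, 194 and 214 in the same order.

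CXCL2 varied little between the arrays. Its probe set 11744127_at had 254 in the control and 237 and 236 in lines 1 and 2, a difference of -0.10 ± 0.01 (SD, n = 2) that was not significant (limma adjusted p = 0.40). On 11744128_x_at the 3 arrays ranged from 225 to 226, with a difference of 0.01 and a limma adjusted p of 0.95.

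CXCL3 differed from control in the opposite direction to CCL20, but at intensities below the filter. Its probe set 11728476_a_at was read at 118 in the control and 134 and 146 in lines 1 and 2, which is 113.7% and 123.6% of control. On 11728477_at the values were 106, 118 and 124. Both knockdown arrays lay above the control on both probe sets, with differences of 0.25 ± 0.08 and 0.19 ± 0.05 (SD, n = 2). When all named probe sets were tested without the filter, neither was significant (limma adjusted p = 0.075 and 0.15).

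CXCL8, the interleukin-8 gene, lay below the filter on all 3 of its probe sets, and these went different ways. On 11718841_s_at the control had 99.7, line 1 102 and line 2 110. On 11754026_a_at the values were 86.9, 82.7 and 80.6, and on 11763226_x_at 105, 93.1 and 91.3. The control was thus the lowest array on the first and the highest on the other pair. At these intensities a fold difference is compressed by whatever background remains, so a change of CXCL8 could not be judged in these cells.

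CCL20, the ligand of CCR6 that attracts dendritic cells and lymphocytes to the epithelium, had the only significant change. Its single probe set, 11724828_at, was read at 458 in the control and 370 and 314 in lines 1 and 2. Both knockdown arrays lay below the control, line 2 more than line 1, at 68.6% of control against 80.8%. The difference was -0.43 ± 0.17 (SD, n = 2), with an SE of 0.10 in limma and an adjusted p of 0.029, lower in 2 of 2 lines. That SE is below the SD because limma drew the spread of CCL20 toward that of all tested probe sets. The p-value thus depends on the spread of other genes. At 1.24-fold and 1.46-fold it missed the size rule in both lines. No other probe set of the gene was named, so the array gives no second reading of the decrease. Less CCL20 RNA per cell and fewer cells that make it cannot be told apart in RNA of a whole culture. Among genes outside the set, the pairs of differences nearest to that of CCL20 belonged to PKP2, a desmosomal plakophilin (-0.33 and -0.53), the metallothionein MT1F (-0.32 and -0.51) and RNF157, a ubiquitin ligase gene (-0.30 and -0.51). This nearness is a distance over only 2 differences that share a control.

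**Figure D2:**
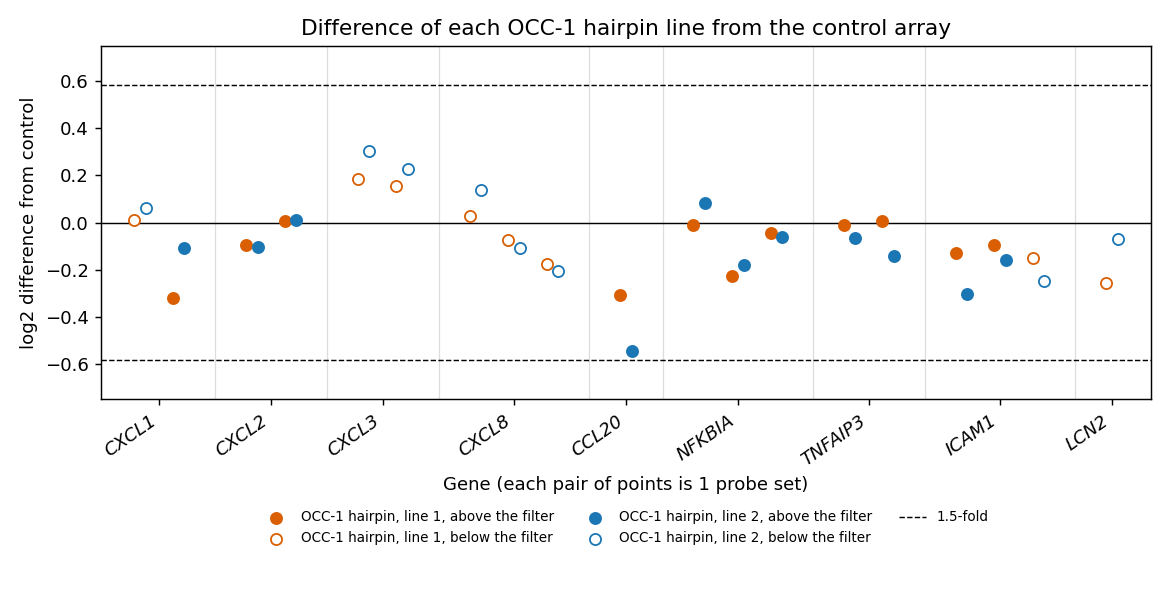
Log2 difference of line 1 and line 2 from the control array for each member probe set, filled where the probe set passed the intensity filter and open where it did not, with 1.5-fold marked by dashed lines. No point crosses either line, and line 2 of CCL20 comes nearest at -0.54.

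The negative regulators, which are themselves induced by NF-kB and end its activity, showed no significant change. NFKBIA encodes IkB-alpha, the inhibitor that recaptures NF-kB. It was read by 3 probe sets, all above the filter. On 11757894_x_at the values were 600 in the control and 581 and 574 in lines 1 and 2. On 11744000_a_at they were 347, 344 and 367, with line 2 the highest array. The probe set 11745878_x_at showed the largest difference, with 585 in the control and 501 and 517 in lines 1 and 2, or -0.20 ± 0.03 (SD, n = 2; limma adjusted p = 0.12). The mean differences of the 3 probe sets thus ran from -0.20 to 0.04.

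TNFAIP3 encodes A20, a ubiquitin-editing enzyme that stops signalling upstream of IKK. On 11718939_s_at the arrays were at 524, 520 and 500 for control, line 1 and line 2. On 11718940_a_at they were at 358, 359 and 324, so that line 2 alone was lower. The differences were -0.04 ± 0.04 and -0.07 ± 0.10 (SD, n = 2), with limma adjusted p-values of 0.77 and 0.63.

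ICAM1, the adhesion molecule that leukocyte integrins grip, was lower than control in both lines on all 3 of its probe sets, without reaching significance. On 11733000_at the control had 257, line 1 241 and line 2 231. On 11732999_a_at the values were 211, 192 and 171, and on 11747499_a_at, which lay below the filter, 192, 173 and 161. The control was the highest and line 2 the lowest array each time. The 2 probe sets above the filter had differences of -0.13 ± 0.05 and -0.22 ± 0.12 (SD, n = 2), with limma adjusted p-values of 0.31 and 0.15. The 3 probe sets read the same RNA on the same arrays and are not separate evidence.

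LCN2 encodes lipocalin-2, which withholds iron from bacteria by binding their siderophores. Its single probe set, 11757634_a_at, lay below the filter with 113 in the control and 94.4 and 107 in lines 1 and 2. Line 1 was at 83.8% of control and line 2 at 95.2%, a difference of -0.16 ± 0.13 (SD, n = 2) that was not significant when tested without the filter (limma adjusted p = 0.28).

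The arrays also differed along the base composition of probes. Of the platform's background control probe sets, 23 carry in their names how many G and C bases a probe has, from 3 to 25. Their differences from control ran from 0.06 down to -0.37 in line 1 and from 0.04 down to -0.23 in line 2, lower where G and C were many. In line 1 all decreases of the member probe sets, CCL20 included, lay within that range. Its lower end there was set by the single probe set with 25 G and C bases. CCL20 (-0.31) and CXCL1 11754114_a_at (-0.32) lay below the next lowest, which was -0.27 with 24. In line 2 CCL20 (-0.54) and the ICAM1 probe sets 11732999_a_at (-0.30) and 11747499_a_at (-0.25) lay below it. Both CXCL3 probe sets lay above the range in both lines. The base composition of the members' own probes was not used here, and its part in these differences was not tested. Nor was it tested for the list genes below. Of these, the significant decreases of IL32, BCL2L1 and LTBR lay within the range in line 1 and below it in line 2.

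The 2 knockdown lines were close to each other for these genes. The widest gap was that of CCL20, which was 0.24 higher in line 1 on the log2 scale, followed by CXCL1, which was 0.21 lower in line 1. Of the 19 probe sets 0 were 1.5-fold apart between the lines, as were 0.00667% of all named probe sets. The median size of the gap was 0.07 for the members and 0.06 for all named probe sets.

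CXCL1, CXCL2, CXCL3 and CXCL8 lie in a single cluster on chromosome 4, where RefSeq places 9 protein-coding genes from CXCL8 to CXCL2, all of them chemokines. Each of the 9 was named by at least 1 probe set, and the probe set with the highest mean was taken for each. PF4V1, CXCL1 and CXCL2 passed the filter. CXCL5, another ligand of CXCR2, was read at 91.3 in the control and 106 and 99.5 in lines 1 and 2. CXCL6, next to CXCL8, had 116, 115 and 115. The platelet chemokine genes PF4 and PPBP had differences of -0.04 and -0.10 and of 0.00 and -0.07. The cluster therefore held small differences in either direction, and of its 3 genes above the filter 0 changed significantly by limma.

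**Figure D3:**
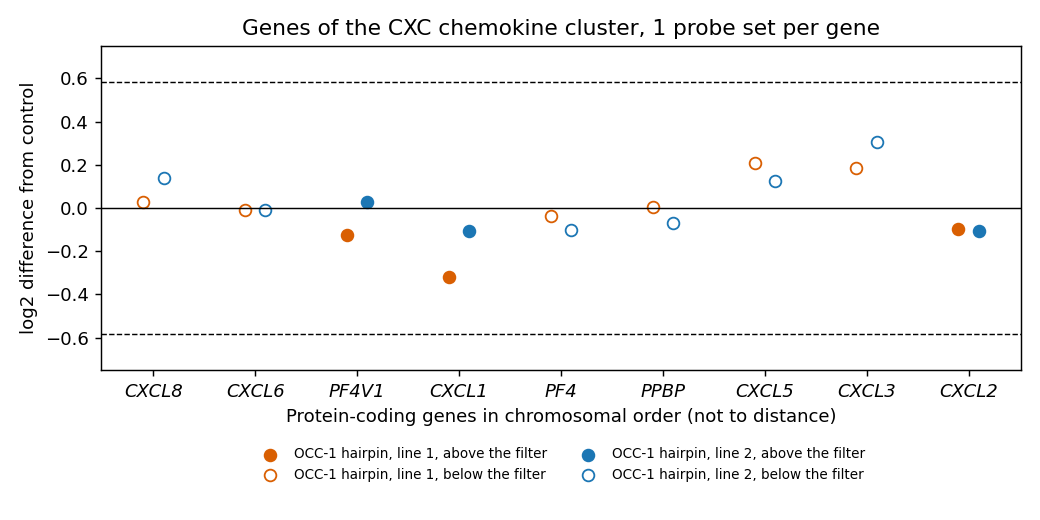
Log2 difference of lines 1 and 2 from control for the 9 protein-coding genes of the chemokine cluster in chromosomal order, not drawn to distance, with filled points above the intensity filter and dashed lines at 1.5-fold. CXCL1 in line 1 (-0.32) and CXCL3 in line 2 (0.31) are the points farthest from 0.

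Other genes of the pathway were read from lists, with the probe set of highest mean for each gene. Beside them, of 11329 genes above the filter, 1.36% were 1.5-fold higher and 0.159% were 1.5-fold lower in both lines, and in limma 10.9% were significantly higher and 4.34% lower. The median difference over all these genes was -0.03 in line 1 and -0.02 in line 2.

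Of 26 other epithelial chemokines and cytokines 11 passed the filter, with a median of -0.12 and -0.04. By limma 1 of the 11 rose, 1 fell and 9 were neither. IL18, an inflammasome-processed cytokine of the epithelium, rose from 240 in the control to 370 in line 1 and 439 in line 2, or 1.54-fold and 1.83-fold (limma adjusted p = 0.0038). It was the only gene of the pathway lists to meet the size rule. No other probe set of IL18 was named, so the array gives no second reading of this rise. IL32, a cytokine induced by TNF, fell from 1092 to 868 and 881 (limma adjusted p = 0.026), and the 3 other IL32 probe sets above the filter were significantly lower too, at -0.37 to -0.31 in line 1 and -0.29 to -0.26 in line 2.

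Of 39 other NF-kB target genes 25 passed the filter, with a median of -0.09 and -0.04, and by limma 1 rose, 1 fell and 23 were neither. The growth regulator MYC, which is a target of many other pathways as well, rose from 1069 to 1523 and 1556 (limma adjusted p = 0.0041). BCL2L1, which encodes the survival protein BCL-XL, fell from 1347 to 1066 and 1122 (limma adjusted p = 0.038). Of the other BCL2L1 probe sets above the filter 1 of 2 was significantly lower.

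Among NF-kB subunits and inhibitors 11 of 13 passed the filter, with a median of -0.04 and -0.01, and 1 rose, 0 fell and 10 were neither. CHUK, which encodes the kinase IKK-alpha, rose from 336 to 422 and 446 (limma adjusted p = 0.018) on its only named probe set. Of 29 upstream receptors and adaptors 21 passed, with medians of 0.01 and -0.01. The lymphotoxin receptor gene LTBR fell from 1632 to 1309 and 1327 (limma adjusted p = 0.030), and MAP3K7, the gene of the kinase TAK1, rose from 614 to 758 and 739 (limma adjusted p = 0.040). The other 19 were neither, and 0 of 5 further MAP3K7 probe sets and 0 of 1 further LTBR probe set were significant.

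Of 16 genes for ubiquitin editing in the pathway 14 passed the filter, with medians of -0.01 and 0.00; 2 rose, 0 fell and 12 were neither. RNF11, a partner of A20, rose from 568 to 893 and 719 (limma adjusted p = 0.028). BTRC, which encodes the beta-TrCP that recognises IkB-alpha, rose from 344 to 416 and 421 (limma adjusted p = 0.041), but its other probe set above the filter was at -0.05 and -0.14.

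The factors that govern decay or stability of chemokine mRNAs had medians of 0.07 and 0.04 over 11 of 11 genes, of which 3 rose, 0 fell and 8 were neither. Among the 8 was ELAVL1, the gene of HuR, with 974 in the control and 974 and 992 in lines 1 and 2 (limma adjusted p = 0.92). The risen genes were the AU-rich-element binding proteins TIA1, from 445 to 670 and 622 (limma adjusted p = 0.0050), ZFP36L2, from 3541 to 4691 and 4885 (adjusted p = 0.0086), and HNRNPD, from 3196 to 4042 and 4030 (adjusted p = 0.022). Their other probe sets above the filter rose less or were lower than control in at least 1 line. Of these, 0 of 3 were significantly higher for TIA1, 0 of 3 for ZFP36L2 and 1 of 6 for HNRNPD. In line 2 they ran from -0.12 to 0.16 for TIA1, from -0.20 to 0.15 for ZFP36L2 and from -0.09 to 0.33 for HNRNPD. The ZFP36L2 probe set 11715818_at, about as bright in the control at 3544, was lower at 3305 and 3095 in lines 1 and 2.

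**Figure D4:**
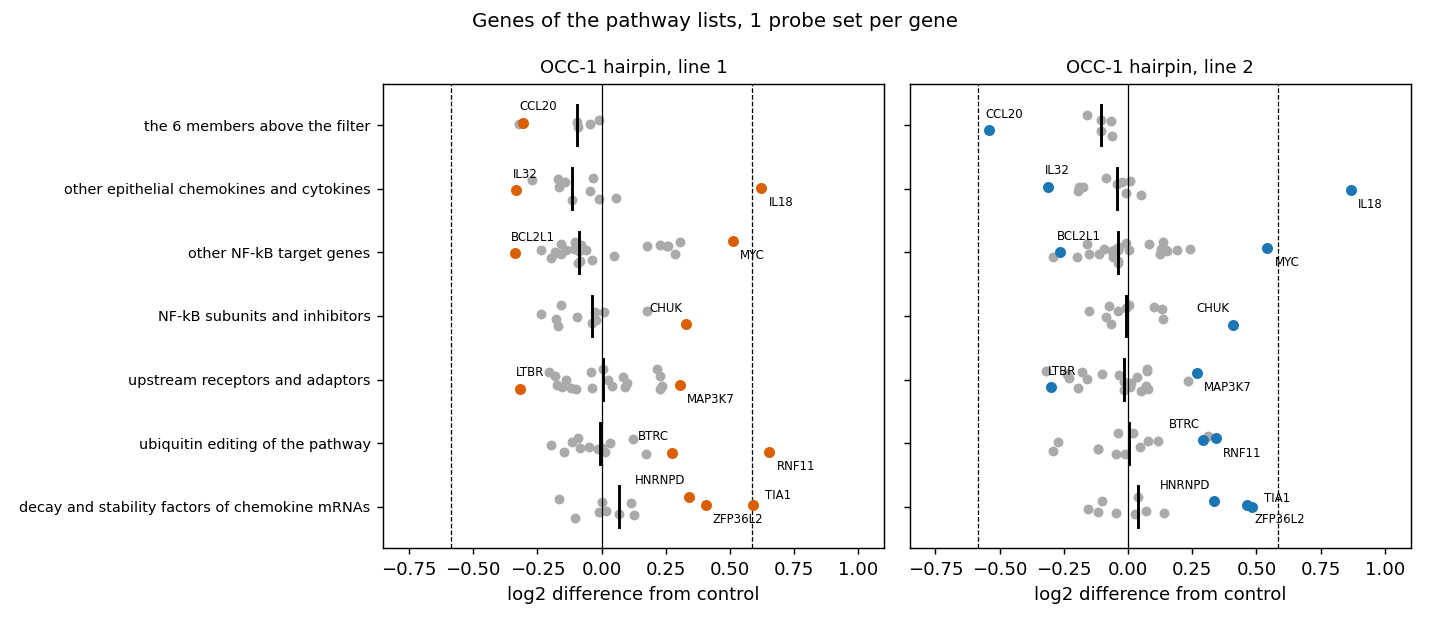
Log2 difference from control for genes above the intensity filter in 6 pathway lists and for the 6 such members, in line 1 (left) and line 2 (right), with 1 point per gene, list medians as black bars and 1.5-fold as dashed lines. Coloured and named points passed limma at an adjusted p of 0.05, and IL18 is the only gene beyond 1.5-fold in both lines.

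Of the receptors and partners of the members' proteins, 2 of 10 passed the filter and neither rose or fell by the test. They were the lipocalin-2 receptors LRP2, with 1693, 1959 and 2138 (limma adjusted p = 0.064), and SLC22A17, with 398, 338 and 384 (adjusted p = 0.33). For LRP2, 2 of 3 other probe sets above the filter were significantly higher. The other 8 genes, which include CXCR1, CXCR2, CCR6 and the leukocyte integrin genes ITGAL, ITGAM and ITGB2, ranged from 104 to 176 in the control, from 101 to 167 in line 1 and from 101 to 186 in line 2.

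The cells were checked against markers. The filter is the median of all probe sets, and 11329 of all 18132 genes passed it. Passing therefore does not show that a cell type is present. Of 12 epithelial and intestinal markers 12 passed the filter, among them KRT8, KRT18, CDH17, VIL1 and CDX2, and 2 of them rose: EPCAM, from 3930 to 5602 and 5911, and CDH1, from 3799 to 5033 and 4891 (limma adjusted p = 0.0040 and 0.014). Leukocytes also express many of the members. Of 10 leukocyte markers 9 were named, with summed intensities of 1697 in the control and 1994 and 1831 in lines 1 and 2, and 4 passed the filter. LYZ, which gut epithelium makes as well, rose (381, 740 and 606; limma adjusted p = 0.0037), but its other probe set above the filter, with 252, 329 and 262, did not pass the test (limma adjusted p = 0.26). Without LYZ the other 8 leukocyte genes summed to 1315, 1254 and 1225. The defining leukocyte gene PTPRC was read at 75.5, 77.2 and 80.1, below the filter on all 3 arrays. The part of other cells in the members' intensities was not tested. Fibroblast markers passed the filter for 5 of 9 genes, including PDGFRA (1016, 1209 and 1023) and COL1A1 (260, 255 and 250). Their summed intensities were 2444, 2614 and 2447, and that PDGFRA probe set was the largest part. Another PDGFRA probe set above the filter was at 343, 300 and 308. The gene's further probe sets, at 114 and 79.2 in the control, lay below the filter, as did COL1A2, LUM, DCN and FAP. Endothelial markers passed for 1 of 7 genes, PECAM1, with sums of 1061, 973 and 1027. In both lists 0 genes rose or fell by the test.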

How the data were processed

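The authors deposited linear intensities, 1 for each probe set of each array; RMA is named in the submitters' processing notes, with version, settings and scaling not given in the sources used here. The 3 arrays were grouped by their genotype label. Intensities, which ran from 50.1 to 19619, were converted to log2 without further normalization. Background appears to remain in them, which would shrink fold differences. Names came from the platform annotation, with 44961 of 44988 looked up by gene identifier in RefSeq GRCh38.p14 tables and 0 symbols changed. Array controls (102) and probe sets with several symbols (1832) or none (2473) were left out of the test. limma 3.58.1 (R 4.3.3; lmFit, eBayes, two-sided, Benjamini-Hochberg) had 1 residual degree of freedom and 8.38 in total. It was tested on simulated data with the noise of all 3 arrays drawn from the difference between the 2 knockdown arrays. That test cannot show what a deviating control array would do. Nothing in the labels makes the lines repeats of 1 culture. The members and gene lists were chosen with earlier results of these data known. Named were all members, OCC-1, and of each list up to 4 genes past either rule ranked by the smaller of their 2 line differences, or up to 3 where none passed. ELAVL1 was named besides, because it encodes HuR. Python 3.11.15 with pandas 2.3.3, numpy 2.4.6 and matplotlib 3.10.9 did the rest. Alternatives were quantile normalization, cyclic loess, background subtraction, other fold thresholds, no filter, a single probe set or the mean per gene, an intensity trend, and leaving out each line.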

Additional observations from a re-analysis of the deposited data

How the results depend on the processing

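No member reached 1.5-fold in both lines under quantile normalization, cyclic loess, or subtraction of each array's lowest value less 16 units. At a threshold of 1.3-fold, 0 members passed in both lines. The largest difference of any member probe set in either line was 1.46-fold (CCL20, line 2). No filter, 1 probe set or the mean per gene, a 2-fold threshold and leaving out a line were therefore bound to give 0. They are no further check of the size rule. With either knockdown line left out, 0 of the 11 probe sets reached 1.5-fold in the line that remained; limma then has no residual degree of freedom and gives no test. CCL20 was the only member called in each of the 6 other limma fits, with differences of -0.47 to -0.40 and adjusted p of 0.0066 to 0.046, the last with 1 probe set per gene. None of these fits took the base composition of probes into account. In 61 refits of single member probe sets that kept all 3 arrays, the sign and the side of the threshold were those reported in 61. Fits without the filter, with 1 probe set per gene or with an intensity trend use the same log2 values. In these the sign could not change, and only the adjusted p could. Of 22 values from a single line, 20 kept the sign of the mean of both. That mean is made of the same 2 values, so at least 1 of each pair had to keep its sign. Without line 2 the sign turned for NFKBIA 11744000_a_at (-0.01) and TNFAIP3 11718940_a_at (0.01). CCL20 was at -0.54 without line 1 and at -0.31 without line 2, and CXCL1 11754114_a_at at -0.11 and -0.32. No paired analysis was possible because a single control array stands against both lines. Among the members, depth of signal limits CXCL3, CXCL8 and LCN2, whose probe sets all lay below the intensity filter.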
